A study of Mus musculus with 5 samples.

Results

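Oxidative phosphorylation is carried out by 4 respiratory chain complexes and the ATP synthase of the inner mitochondrial membrane. These data were searched for the genes of its subunits, chosen by their symbols. Of the 31053 genes counted, 96 matched, of which 83 are nuclear and 13 are the protein-coding genes of the mitochondrial genome. By complex, the nuclear and mitochondrial members numbered 35 and 7 in complex I (NADH dehydrogenase), 4 and 0 in complex II (succinate dehydrogenase), 8 and 1 in complex III (cytochrome bc1 complex), 19 and 3 in complex IV (cytochrome c oxidase), and 17 and 2 in complex V (ATP synthase). Ndufa4, named after complex I, was placed in complex IV. Atp5s matches the symbol pattern but is not a core subunit of the ATP synthase, Atp5o stood on 2 gene identifiers, of which 1 had no UMI in epithelial-like cells, and Cyc1 and Ndufab1 lie outside the pattern.

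Complexes I, III and IV pass electrons to oxygen and pump protons, complex II feeds electrons from the citric acid cycle, and the ATP synthase uses the proton gradient to make ATP. Apart from complex II, each complex is a mosaic of subunits that are translated in the cytosol and imported and of subunits that are transcribed from the mitochondrial genome as long precursors and translated inside the organelle. Transcripts of the nuclear and the mitochondrial members are therefore made and turned over by separate machineries, and they were kept apart here. Oxygen, which vessels deliver to a tumor, is the final electron acceptor of the chain.

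The data were single-cell transcriptomes of sorted viable (DAPI-) cells from mammary tumors of FVB/N-Tg(MMTV-PyVT)634Mul/J mice (MMTV-PyMT), in which the mouse mammary tumor virus promoter drives polyoma middle T antigen in mammary epithelium. From 7 weeks of age the mice received 5 mg/kg of an antibody by intraperitoneal injection, 2 times a week for 6 weeks, either B20-4.1.1, which neutralises VEGF-A, or mouse isotype IgG2a (clone C1.18.4). There were 6 isotype and 9 B20-4.1.1 tumors, processed as 5 pools of 3 tumors, 2 isotype pools and 3 B20-4.1.1 pools. Because no pool mixed treatments, pool and treatment cannot be told apart.

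Of 30340 deposited cells, 19533 were kept. Cells were gated on marker genes into 13227 epithelial-like, 2613 T-like and 1481 macrophage-like cells, and 1743 kept cells stayed without a class. Of the class's own markers, 10 of 13 were found in at least 25% of epithelial-like cells, 12 of 12 in T-like cells and 12 of 12 in macrophage-like cells. Tumors held from 4014509 to 23726246 UMIs. The median UMI count per deposited cell was 2321 in isotype pool 1, 6475.5 in isotype pool 2, and between 4120.5 and 7129 in the B20-4.1.1 pools. The pools shared at most 24 cell barcodes, and tumors of a pool shared none. In 3 B20-4.1.1 tumors of pools 1 and 2, 62.2% to 72.4% of the gated cells were T-like. Levels are UMIs of a gene per 10000 UMIs of a class in a tumor, uncorrected for gene length, and the tumor was the replicate. Such levels are a tumor's share of RNA in a class and do not show transcripts per cell.

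In epithelial-like cells the isotype pool means stood on either side of the B20-4.1.1 pool means for the nuclear members and above them, far apart from each other, for the mitochondrial members. The summed nuclear members took 263.6, 306.0 and 366.4 per 10000 UMIs (lowest, median and highest of 6 isotype tumors) and 308.3, 316.8 and 357.4 in the 9 B20-4.1.1 tumors. The groups overlapped, because isotype pool 1 (mean 266.4) lay below every B20-4.1.1 tumor, whereas isotype pool 2 (mean 357.4) lay above the means of all 3 B20-4.1.1 pools (316.1, 311.9 and 340.0). The summed mitochondrial members took 376.3, 544.6 and 668.8 in isotype and 288.0, 331.8 and 354.7 in B20-4.1.1 tumors. These groups did not overlap, but the isotype pools, with means of 662.7 and 398.6, were farther apart than isotype pool 2 was from the B20-4.1.1 pools (333.9, 323.2 and 323.4). Within pools, the tumors spanned 1.70 to 30.3 for the nuclear and 18.1 to 62.3 for the mitochondrial sum. The difference between the treatment means was 10.8 for the nuclear sum and turned to -34.8 without isotype pool 1 and to 56.3 without isotype pool 2. For the mitochondrial sum it was -204, and -71.8 and -336 without either pool.

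**Figure D1:**
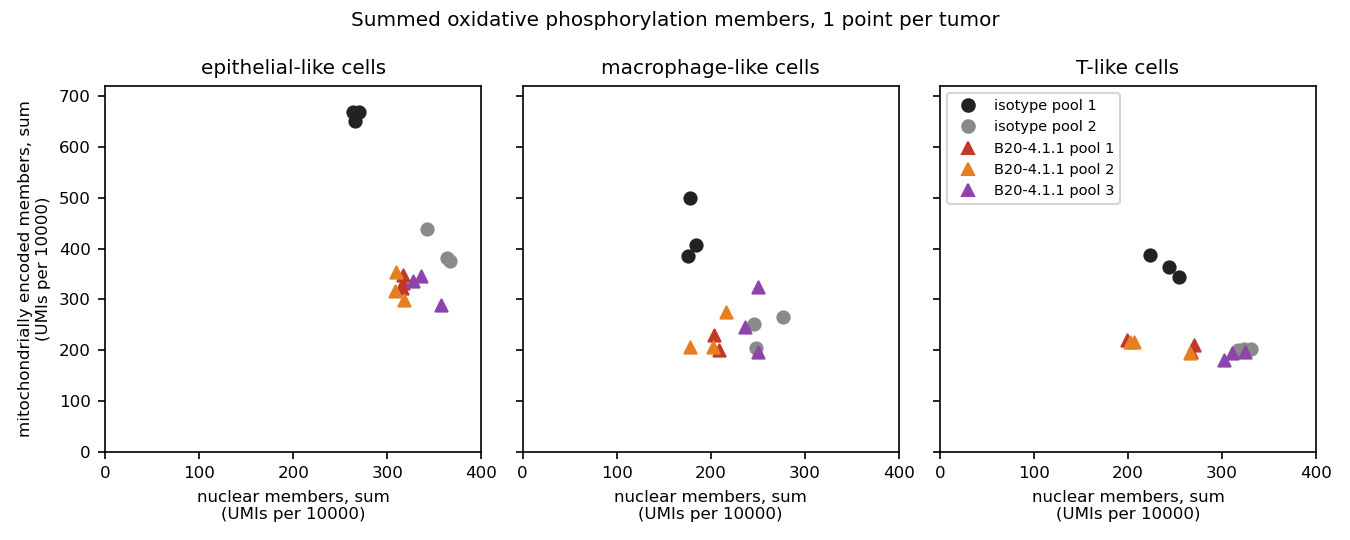
Summed mitochondrial members (vertical axis) against summed nuclear members (horizontal axis), both in UMIs per 10000, for epithelial-like, macrophage-like and T-like cells. Each point is a tumor with at least 20 cells of the class, circles are isotype and triangles B20-4.1.1 tumors, and colors mark the pool. The 3 tumors of isotype pool 1 stand apart at the upper left in epithelial-like and macrophage-like cells and at the top in T-like cells.

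The separation of isotype pool 1 ran through most nuclear subunits in epithelial-like and macrophage-like cells, and through fewer in T-like cells. Its mean was the lowest of the 5 pools for 64 of the 78 nuclear members that passed the filter on low counts (82.1%, against 19.3% of all genes tested), and isotype pool 2 was the highest for 44 of them (56.4%, against 11.1% of all genes). In macrophage-like cells isotype pool 1 was the lowest pool for 55 of 75 nuclear members (73.3%, against 18.8% of all genes). In T-like cells it was the lowest for 21 of 74 (28.4%, against 15.4%). It was the highest pool for 12 of 13 mitochondrial members in epithelial-like cells (49.3% of all genes), 12 of 13 in macrophage-like cells (34.8%) and 11 of 13 among T-like cells (35.4%). Nuclear complexes I, III, IV and V had this order in epithelial-like cells. Complex I summed to 76.9 and 101.9 in isotype pools 1 and 2 and to 92.8, 92.6 and 98.4 in B20-4.1.1 pools 1 to 3. Complex IV summed to 83.5 and 114.7 against 96.2, 93.1 and 105.4, and complex V to 74.7 and 99.0 against 89.3, 87.5 and 94.6. Complex III summed to 28.1 and 38.4 against 34.5, 34.7 and 38.0. Complex II, the smallest, took 3.2 and 3.5, with 3.5, 4.0 and 3.5 under B20-4.1.1. Isotype pool 1 also had the lowest median UMI count per deposited cell (2321). Among gated epithelial-like cells, its tumor medians were 7697.5 to 8066.5 UMIs, against 8519 to 9508.5 in isotype pool 2. They were 6570.5 to 6836.5 against 6036.5 to 6400 in macrophage-like cells, and 4681 to 5081 against 4244.5 to 4670.5 in T-like cells. The part of depth in these results was not tested.

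The comparison of B20-4.1.1 with isotype asks whether VEGF-A blockade is accompanied by another level of these transcripts. Across all 12167 genes tested in epithelial-like cells, edgeR's quasi-likelihood test called 8.03% higher and 7.36% lower under B20-4.1.1 (adjusted p under 0.05), that is 977 and 896 genes. Of the nuclear members, 2 of 78 were called higher and 1 lower, which is below that background, and their median log2 fold change was 0.12. Of the 13 mitochondrial members, 11 were called lower and none higher, with a median of -0.61, where the median of all genes was -0.01. Without composition (TMM) factors the split over all genes moved to 731 higher and 1406 lower, the all-gene median moved to -0.10, and 3 nuclear members were called higher and 4 lower. The 5 nuclear members that did not pass the filter were Cox4i2, Cox6a2, Cox7b2, Cox8c, which are known from lung, muscle or testis, and the empty Atp5o entry, each with at most 14 UMIs over all tumors.

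Of the mitochondrial members, mt-Nd3 and mt-Nd6 of complex I had the largest fold changes, and complex I also held the smallest, that of mt-Nd4l. mt-Nd3 took 4.90, 10.7 and 15.9 per 10000 UMIs in isotype tumors (lowest, median and highest) and 3.19, 4.08 and 4.83 in B20-4.1.1 tumors. It fell by 1.19 on the log2 scale (SE 0.22, edgeR adjusted p = 0.0030), and the groups did not overlap. mt-Nd6, the only member on the opposite strand of the mitochondrial genome, took 0.383, 0.872 and 1.49 in isotype and 0.172, 0.325 and 0.503 in B20-4.1.1 tumors. Its groups overlapped, and it fell by 1.21 (SE 0.28, edgeR adjusted p = 0.0094). mt-Nd2 went from 14.8, 24.4 and 32.4 to 10.1, 12.7 and 13.6 without overlap and fell by 0.85 (SE 0.14). mt-Nd1 and mt-Nd5 fell by 0.68 and 0.66, and mt-Nd4, at 33.5 to 45.7 in isotype and 24.1 to 30.0 in B20-4.1.1 tumors, by 0.47. mt-Nd4l, which shares 7 bases with mt-Nd4, did not pass the test (log2 fold change -0.08, SE 0.12, edgeR adjusted p = 0.69). It took 6.94 to 8.83 in isotype and 5.78 to 8.46 in B20-4.1.1 tumors. In these 3' libraries, whether UMIs of such overlapping genes stand for separate transcripts was not tested.

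The catalytic core of cytochrome c oxidase is encoded by mt-Co1, mt-Co2 and mt-Co3. mt-Co3 took 53.2, 95.4 and 131 in isotype and 39.7, 45.6 and 53.9 in B20-4.1.1 tumors and fell by 0.89 (SE 0.16, edgeR adjusted p = 0.0029). mt-Co2 fell by 0.55 and mt-Co1 by 0.37, the smallest change among the 11. mt-Cytb, the only mitochondrial subunit of complex III, took 47.8 to 65.3 in isotype and 30.9 to 46.4 in B20-4.1.1 tumors and fell by 0.44 (SE 0.08). mt-Atp6, the proton channel subunit of the ATP synthase and the member with the highest level, took 76.4, 109 and 133 in isotype and 59.3, 64.6 and 69.0 in B20-4.1.1 tumors and fell by 0.61 (SE 0.10). mt-Atp8, which shares 43 bases with mt-Atp6, did not pass the test (log2 fold change -0.18, edgeR adjusted p = 0.43). For this overlapping pair, too, it was not tested whether the UMIs stand for separate transcripts. Group ranges did not overlap for 8 of the 13 mitochondrial members, all lower under B20-4.1.1 (mt-Nd1, mt-Nd2, mt-Nd3, mt-Nd4, mt-Nd5, mt-Co2, mt-Atp6 and mt-Cytb), where 1.4% of all genes tested were apart in this direction.

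The 13 genes lie on the mitochondrial chromosome between bases 2751 and 15288 (mm10). The gap between the isotype pools was uneven along it and the gap to the B20-4.1.1 pools was even. The mean of isotype pool 1 was 3.26 times that of isotype pool 2 for mt-Nd6, 3.02 times for mt-Nd3, 2.28 times for mt-Co3 and 2.04 times for mt-Nd2, but 1.27 times for mt-Nd4, 1.29 times for mt-Cytb and 0.83 times for mt-Nd4l. The median of the B20-4.1.1 pools was between 0.77 and 0.91 times the mean of isotype pool 2 for all 13. Without isotype pool 1, all 13 fold changes were negative with a median of -0.32, and 4 were called lower by edgeR: mt-Nd4 (fell by 0.41), mt-Nd2 (0.38), mt-Cytb (0.36) and mt-Atp6 (0.34). In that fit 1.13% of all genes were called lower. Without isotype pool 2, 11 were called lower with a median of -0.82 (background 21.5%). With pool as a random effect, 2 stayed below the threshold, mt-Atp6 (adjusted p = 0.045) and mt-Nd2 (adjusted p = 0.049; background 0.132%), and with counts summed per pool none did, where 0.00718% of all genes were called lower. At an unadjusted p under 0.05 there were 8, against 10.2% of all genes in either direction.

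**Figure D2:**
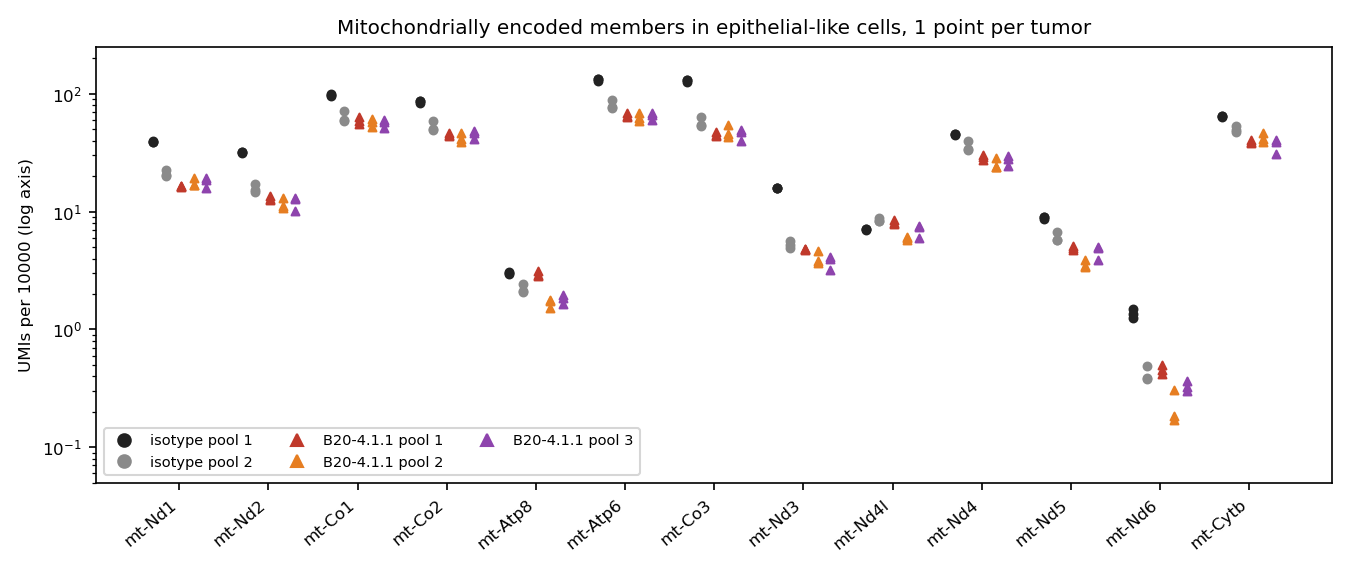
Level of each mitochondrial member in epithelial-like cells in UMIs per 10000 (log axis), in the order of the genes on the mitochondrial chromosome, with 1 point per tumor and colors by pool. The distance of isotype pool 1 from isotype pool 2 changes from gene to gene, from 3.26 times for mt-Nd6 to 0.83 times for mt-Nd4l, while the B20-4.1.1 pools lie close below isotype pool 2.

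Of the nuclear members, Atp5h had the clearest difference. Atp5h encodes subunit d of the peripheral stalk of the ATP synthase. It took 6.33, 7.01 and 7.36 per 10000 UMIs in isotype tumors and 8.37, 8.77 and 10.8 in B20-4.1.1 tumors. The groups did not overlap, the 2 isotype pools lay close together (means 6.71 and 7.12), and the log2 fold change was 0.48 (SE 0.10, edgeR adjusted p = 0.0045). Without isotype pool 1 it was 0.34 (adjusted p = 0.060). Ndufa6, an accessory subunit of complex I, took 3.69, 4.10 and 4.44 in isotype and 4.45, 4.69 and 5.42 in B20-4.1.1 tumors. Its ranges came close without overlap, with a log2 fold change of 0.33 (SE 0.09, adjusted p = 0.024) that was 0.15 (adjusted p = 0.28) without isotype pool 1. These were the only nuclear members with ranges apart in this direction, against 1.5% of all genes.

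Cox8b, the form of subunit VIII of cytochrome c oxidase known from heart, muscle and brown fat, was the nuclear member called lower. It was rare, at 0.103, 0.120 and 0.164 per 10000 UMIs in isotype and 0.015, 0.067 and 0.172 in B20-4.1.1 tumors. The groups overlapped, since 1 tumor of B20-4.1.1 pool 2 was the highest of all, and it fell by 1.00 (SE 0.30, adjusted p = 0.033). The call was lost without any pool except B20-4.1.1 pool 2 (adjusted p between 0.068 and 0.159 without each of the others), and with clusters in place of the gate (adjusted p = 0.22). Its widely expressed counterpart Cox8a had a log2 fold change of 0.11 (adjusted p = 0.64). Atp5a1, the catalytic-head alpha subunit of the ATP synthase, had ranges apart in the other direction, at 4.18 to 4.37 in isotype and 3.65 to 4.09 in B20-4.1.1 tumors. Scaled with TMM factors its log2 fold change was -0.08 (adjusted p = 0.45).

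**Figure D3:**
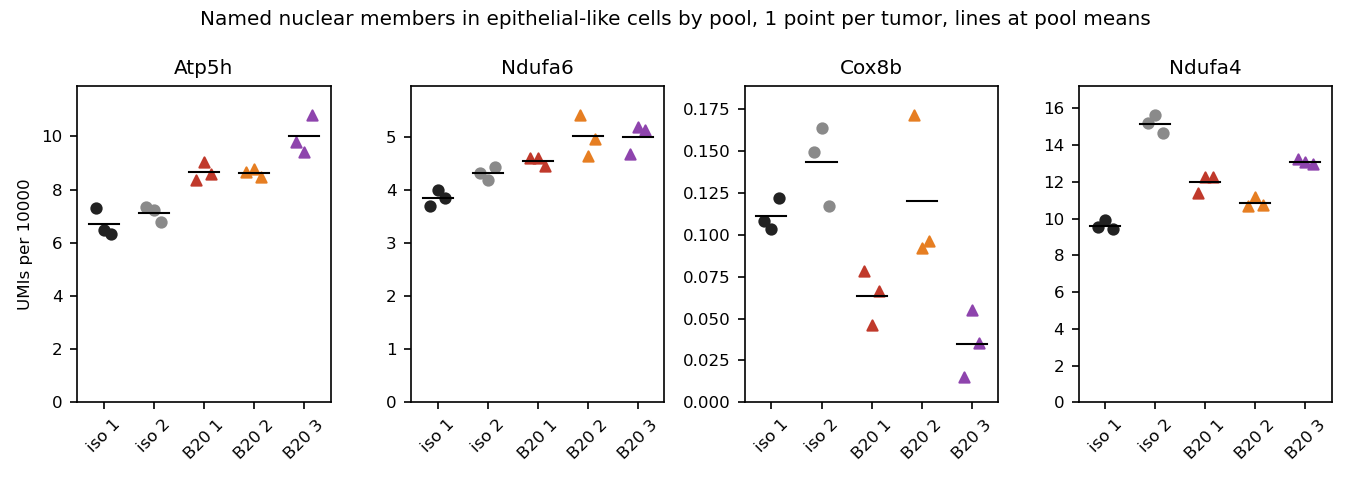
UMIs per 10000 of Atp5h, Ndufa6, Cox8b and Ndufa4 in epithelial-like cells, 1 point per tumor, by pool (iso, isotype; B20, B20-4.1.1), with lines at the pool means and each axis starting at 0. For Atp5h all 9 B20-4.1.1 tumors lie above all 6 isotype tumors, and for Ndufa4 the B20-4.1.1 tumors lie between isotype pools 1 and 2.

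Promoters of the members discussed here are given for context, as 250 bases before and 50 after the RefSeq start of the gene (GRCm38.p6, the same assembly as mm10), 5′ to 3′ on the gene's strand. Atp5h and Ndufa6 are the nuclear members called higher. Cox8b is the one called lower, and Cox7a1 and Cox7a2 are alternative forms of subunit VIIa that are compared between cell classes below. Capitals mark matches, on either strand, to GCGCA followed by any base and GCGC, a motif of nuclear respiratory factor 1 (NRF1), and to CCGGAAGT, an ETS motif bound by GABPA. The windows are chr11:115419870-115420169 (minus strand) for Atp5h, chr15:82354242-82354541 (minus) for Ndufa6, chr7:140900397-140900696 (minus) for Cox8b, chr7:30183921-30184220 (plus) for Cox7a1 and chr9:79759804-79760103 (minus) for Cox7a2.
Atp5h: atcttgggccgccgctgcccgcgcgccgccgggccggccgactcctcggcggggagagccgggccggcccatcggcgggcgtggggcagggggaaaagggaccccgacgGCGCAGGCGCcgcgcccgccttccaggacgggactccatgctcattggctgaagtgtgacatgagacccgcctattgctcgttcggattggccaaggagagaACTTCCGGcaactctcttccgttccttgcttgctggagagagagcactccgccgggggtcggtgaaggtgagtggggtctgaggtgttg
Ndufa6: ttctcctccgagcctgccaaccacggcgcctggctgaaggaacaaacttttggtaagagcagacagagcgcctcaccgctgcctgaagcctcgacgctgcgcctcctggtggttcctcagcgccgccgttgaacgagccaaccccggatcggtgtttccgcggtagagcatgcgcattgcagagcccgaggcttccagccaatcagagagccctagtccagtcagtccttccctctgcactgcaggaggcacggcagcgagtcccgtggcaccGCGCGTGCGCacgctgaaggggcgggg
Cox8b: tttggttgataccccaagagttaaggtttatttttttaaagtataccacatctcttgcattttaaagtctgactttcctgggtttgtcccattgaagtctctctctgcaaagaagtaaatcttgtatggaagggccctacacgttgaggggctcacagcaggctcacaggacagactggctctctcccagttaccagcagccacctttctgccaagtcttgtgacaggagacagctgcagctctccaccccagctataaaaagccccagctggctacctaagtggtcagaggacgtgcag
Cox7a1: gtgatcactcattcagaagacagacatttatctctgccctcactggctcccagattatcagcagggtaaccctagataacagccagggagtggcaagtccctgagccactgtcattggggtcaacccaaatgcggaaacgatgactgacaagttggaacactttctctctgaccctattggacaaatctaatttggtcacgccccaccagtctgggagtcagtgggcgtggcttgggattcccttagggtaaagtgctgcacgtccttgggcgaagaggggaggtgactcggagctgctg
Cox7a2: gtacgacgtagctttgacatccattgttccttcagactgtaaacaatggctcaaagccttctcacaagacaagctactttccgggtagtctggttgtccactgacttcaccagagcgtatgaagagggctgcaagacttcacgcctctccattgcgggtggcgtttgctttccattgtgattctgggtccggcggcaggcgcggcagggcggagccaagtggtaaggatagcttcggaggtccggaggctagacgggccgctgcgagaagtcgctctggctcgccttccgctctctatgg

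The windows of Atp5h and Ndufa6 held 32 and 27 CpG dinucleotides, that of Cox7a2 20, and those of the tissue-restricted Cox7a1 and Cox8b 7 and 2. A RefSeq window was found for 66 of the 83 nuclear members. The NRF1 motif stood in 16 of them (24.2%) and in 4.78% of all 27025 windows. The GABPA motif stood in 5 (7.58%, against 4% of all windows), and AAGATGGC, a YY1 motif, in 8 (12.1%, against 2.88%). No motif overlapped the letters of another, and a match is only a description of the sequence.

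Succinate dehydrogenase is the complex with no mitochondrial subunit, and Sdha is also the citric acid cycle enzyme. Sdhb, the iron-sulfur subunit, took 0.697, 0.882 and 1.117 per 10000 UMIs in isotype and 1.016, 1.107 and 1.361 in B20-4.1.1 tumors, with isotype pool 2 (mean 1.083) within the B20-4.1.1 range. Its log2 fold change of 0.44 (SE 0.15) missed the threshold (edgeR adjusted p = 0.054). Sdhd and Sdhc, the membrane anchors, had log2 fold changes of 0.25 (adjusted p = 0.057) and 0.17 (adjusted p = 0.17). Sdha, the flavoprotein, took 0.702 to 0.949 in isotype and 0.641 to 0.778 in B20-4.1.1 tumors, with a log2 fold change of -0.11 (adjusted p = 0.26). For Sdha the isotype pools were in the reverse order of Sdhb, at 0.936 and 0.718 against 0.709 and 1.083.

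How many nuclear members were called depended on which isotype pool was in the fit. Without isotype pool 2, edgeR called 67 of 78 nuclear members higher (median log2 fold change 0.48), where 22.9% of all genes were called higher. These were 33 of 35 in complex I, 3 of 4 in complex II, 8 of 8 in complex III, 10 of 15 in complex IV and 13 of 16 in complex V. Without isotype pool 1, none was called higher and 2 were called lower, Ndufa4 (fell by 0.36, adjusted p = 0.043) and Atp5j2 (fell by 0.30, adjusted p = 0.046), where 1.98% of all genes were called higher and 1.13% lower. In that fit 67 of 78 nuclear members had a negative fold change, against 48.4% of all genes, and the median was -0.13. An unadjusted p under 0.05 was found for 30 of 78, against 20% of all genes. Ndufa4, a subunit bound to cytochrome c oxidase, showed this most directly. It took 9.62 in isotype pool 1 and 15.2 in isotype pool 2, with B20-4.1.1 pools of 12.0, 10.9 and 13.1 between them, and its log2 fold change was 0.01 with both pools, 0.52 without pool 2 and -0.36 without pool 1. With pool as a random effect no nuclear member was called (0.271% of all genes higher), and 12 of 78 had an unadjusted p under 0.05, against 17.2% of all genes. With sums per pool none was called, and 1 had an unadjusted p under 0.05, against 10.2% of all genes. With totals taken without the mitochondrial genes, 2 nuclear members were again called higher and 1 lower.

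**Figure D4:**
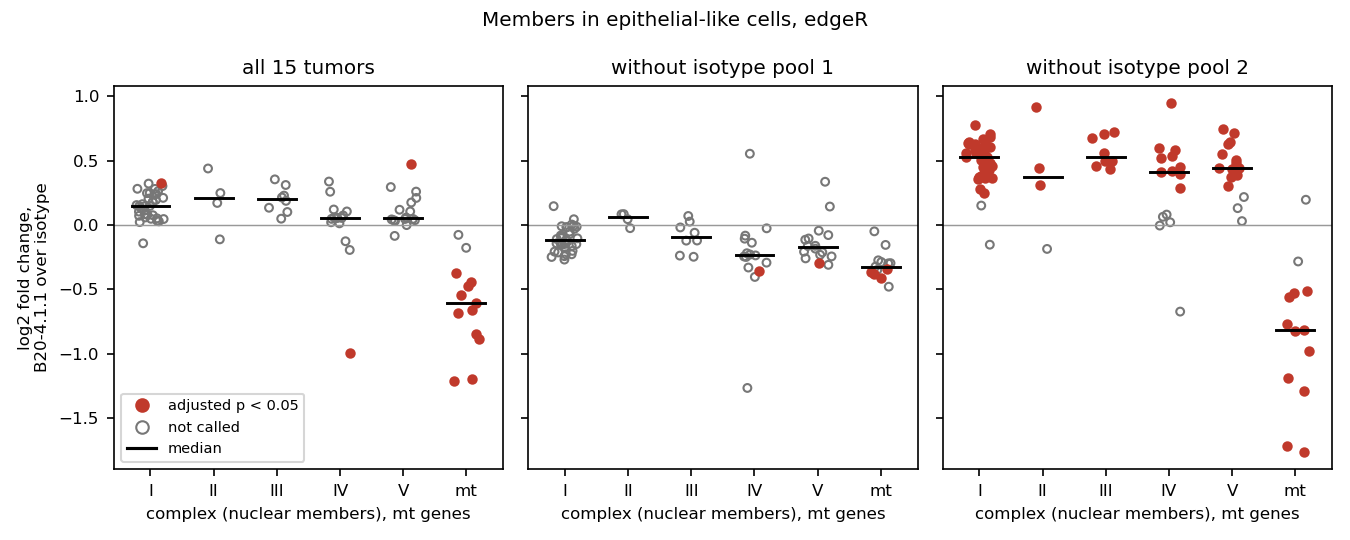
Log2 fold change of each member in epithelial-like cells, B20-4.1.1 over isotype, with all 15 tumors, without isotype pool 1 and without isotype pool 2, for the nuclear members by complex (I to V) and the mitochondrial members (mt). Filled points passed an adjusted p of 0.05 in edgeR and lines are medians. The nuclear median moves from 0.12 to -0.13 and to 0.48, and the mitochondrial median stays below 0 in all 3 panels.

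In macrophage-like cells (6 isotype and 8 B20-4.1.1 tumors) the nuclear sum spanned 176.3 to 276.9 in isotype and 177.8 to 250.8 in B20-4.1.1 tumors, with means of 218.4 and 218.3. By pool it was 179.5 and 257.3 in isotype and 206.0, 198.9 and 245.8 under B20-4.1.1, and the difference of the means was -39.0 without isotype pool 1 and 38.8 without isotype pool 2. The mitochondrial sum spanned 204.2 to 498.7 and 197.1 to 324.7. By pool the latter was 430.1 and 240.6 in isotype and 214.2, 229.5 and 255.7 under B20-4.1.1, so that isotype pool 2 lay among the B20-4.1.1 pools. edgeR called no member (3 nuclear and 8 mitochondrial at an unadjusted p under 0.05, against 10.1% of all genes), where 0.0296% of 6755 genes were called higher and 0.0148% lower, and DESeq2 called none either. Without isotype pool 2, 18 of 76 nuclear members were called higher and 7 mitochondrial members lower (backgrounds 4.13% and 2.5%). Without isotype pool 1, the median of the mitochondrial members was -0.02.

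Among T-like cells (6 and 9 tumors) the nuclear sum spanned 223.4 to 330.9 in isotype and 198.9 to 324.3 in B20-4.1.1 tumors. The mitochondrial sum spanned 199.9 to 388.2 and 179.7 to 219.8, and the ranges overlapped only through isotype pool 2 (mean 201.6, against 365.1 in pool 1). edgeR called no member (3 nuclear and 5 mitochondrial at an unadjusted p under 0.05, against 17.0% of all genes) and DESeq2 called 1 mitochondrial member, where edgeR called 0.0353% of 5663 genes higher and 0% lower. Without isotype pool 2, 5 mitochondrial members were called lower (background 0.186%), and without pool 1 their median was 0.15. By size, mt-Nd3 and mt-Nd6 led in either class, at -1.10 and -0.91 for macrophage-like cells (adjusted p = 0.17 and 0.31) and at -0.80 and -1.20 for T-like cells (adjusted p = 0.16 and 0.17).

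Whether the treatment difference itself differed between epithelial-like and T-like cells was tested with an interaction term. No member passed in edgeR (13 nuclear and 9 mitochondrial at an unadjusted p under 0.05, against 12.5% of all genes), where 0.0542% of 11074 genes were called higher and 0.00903% lower. Those 13 nuclear differences were all positive and those 9 mitochondrial ones all negative. The 12.5% covers both directions, and no share of all genes by direction was taken for comparison. The T-like side of the term also held 3 tumors under B20-4.1.1 with low nuclear sums, described below. These were 198.9 to 206.9, against 265.5 to 270.5 in their pool mates and 302.0 to 324.3 in B20-4.1.1 pool 3. Their part in the signs was not tested. In simulated counts the interaction test recovered 37% of log2 changes of 1 and 6% of changes of 0.5. A missed call therefore does not show that the classes responded alike. The members nearest to a call were mt-Nd3, whose difference was 0.46 more negative in epithelial-like cells (log2 -0.46, adjusted p = 0.15), and Uqcrq, a small subunit of complex III (0.47, adjusted p = 0.15). Without B20-4.1.1 pool 3, 4 members were called, Atp5f1 and Uqcrq higher and mt-Nd2 and mt-Nd5 lower, and the calls over all genes grew as well, to 0.818% higher and 0.497% lower.

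The nuclear members in T-like cells varied among tumors of the same pool. In the 3 B20-4.1.1 tumors that were mostly T-like cells, the nuclear sum lay between 198.9 and 206.9, against 265.5 to 270.5 in the 3 tumors sequenced with them and 302.0 to 324.3 in B20-4.1.1 pool 3. The mitochondrial sum was 215.0 to 219.8 against 193.9 to 209.1. In these tumors Ccr7, a homing receptor of naive and central memory T cells, took 2.22 to 4.53 per 10000 UMIs, against 0.166 to 0.688 in their pool mates. Genes with symbols of cytosolic ribosomal proteins took 3413 to 3592 against 2475 to 2972. The part of these values in the sums was not tested, and the 3 tumors were set apart after the cell counts had been seen.

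Between cell classes of the same tumors, most members were higher in epithelial-like cells. The nuclear sum was higher in epithelial-like than in T-like cells in 15 of 15 tumors (1.03 to 1.59 times, median 1.15) and the mitochondrial sum in 15 of 15 (1.46 to 2.17 times, median 1.72). Against macrophage-like cells the nuclear sum was higher in 14 of 14 tumors (1.30 to 1.79 times, median 1.47) and the mitochondrial sum in 13 of 14 (0.887 to 2.15 times, median 1.47). Both isotype pools had this order in both sums, although their levels differed. In a fit with tumor as a term, edgeR called 60 of 76 nuclear members higher and 4 lower than in T-like cells, where 45.7% of 9957 genes were called higher and 31.7% lower. With any pool left out, the counts were 41 to 50 higher and 6 to 11 lower. Against macrophage-like cells it called 66 of 76 higher and 3 lower (background 44.6% and 34.7% of 9428 genes). Of the 13 mitochondrial members, 12 were called higher in either comparison, all but mt-Nd5 (log2 fold change 0.18, adjusted p = 0.079, and 0.17, adjusted p = 0.083). The median of all genes was shifted to 0.18 and 0.12, and above this shift the nuclear medians were 0.23 and 0.42 and the mitochondrial medians 0.69 and 0.38.

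Cox7a1, the subunit VIIa form of heart and skeletal muscle, had the largest fold change among the members that passed the filter in these comparisons. It took 0.169, 0.295 and 0.429 per 10000 UMIs in epithelial-like cells (lowest, median and highest of all tumors), 0 to 0.235 in macrophage-like and 0 to 0.058 in T-like cells. Its log2 fold change was 3.76 over T-like (SE 0.21) and 1.37 over macrophage-like cells (SE 0.16), and it was higher in epithelial-like cells in 15 of 15 and 14 of 14 tumors. Its widely expressed counterpart Cox7a2 took 5.83, 6.70 and 8.45 in epithelial-like and 4.01, 6.21 and 9.50 in T-like cells. Its log2 fold changes were 0.24 over T-like and 0.73 over macrophage-like cells, where the medians of all genes were 0.18 and 0.12. As a measure of free epithelial RNA, a list of mostly milk protein and keratin genes took 1.52% to 4.87% of its epithelial level in T-like and 2.26% to 5.41% in macrophage-like cells, which also express its members Spp1 and Trf themselves. Some rare members did not pass the filter and were not tested in these main fits. Cox8b had a median of 0.097 in epithelial-like cells and of 0 in both T-like and macrophage-like cells. Cox6b2, a form known from testis, had medians of 0.024 in epithelial-like and 0.159 in macrophage-like cells. At such levels depth limits the comparison.

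Among the abundant members, Uqcr11, the smallest subunit of complex III, took 6.09, 7.29 and 8.81 in epithelial-like and 1.81, 3.04 and 4.40 in T-like cells without overlap (log2 fold change 1.42, SE 0.07). The complex I accessory subunits Ndufc2 and Ndufb9 followed over T-like cells (1.33 and 1.18), and Ndufa7, Ndufb11 and Ndufb9 over macrophage-like cells (1.13, 1.12 and 1.09). Ndufa4 took 9.41, 12.3 and 15.7 in epithelial-like, 5.34, 7.96 and 11.9 in T-like and 3.33, 4.59 and 7.74 in macrophage-like cells. Its log2 fold change was 1.35 over macrophage-like (SE 0.05) and 0.71 over T-like cells.

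A few subunits went the other way. Cox5a, a nuclear subunit of cytochrome c oxidase, took 2.29, 3.02 and 4.17 in epithelial-like, 2.99, 5.26 and 8.35 in T-like and 3.65, 5.70 and 7.17 in macrophage-like cells. It was lower in epithelial-like cells by 0.63 on the log2 scale (log2 fold change -0.63, SE 0.08) and by 0.85 (-0.85, SE 0.06), and higher in only 1 of 15 and 0 of 14 tumors. Atp5e, the epsilon subunit of the ATP synthase, had a median over tumors of 8.57 in epithelial-like and 14.7 in T-like cells (log2 fold change -0.57, SE 0.06), and was higher in epithelial-like cells in 0 of 15 tumors. The others called lower than in T-like cells were Cox7a2l (-0.59), which takes part in supercomplexes, and Ndufa1 (-0.33). All 4 were called lower in each of the 12 fits of this comparison, the alternatives and left-out pools included. Sdhb was lower than in macrophage-like cells (-0.42, SE 0.06, 0 of 14 tumors higher), as was Atp5e by a small amount (-0.14).

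**Figure D5:**
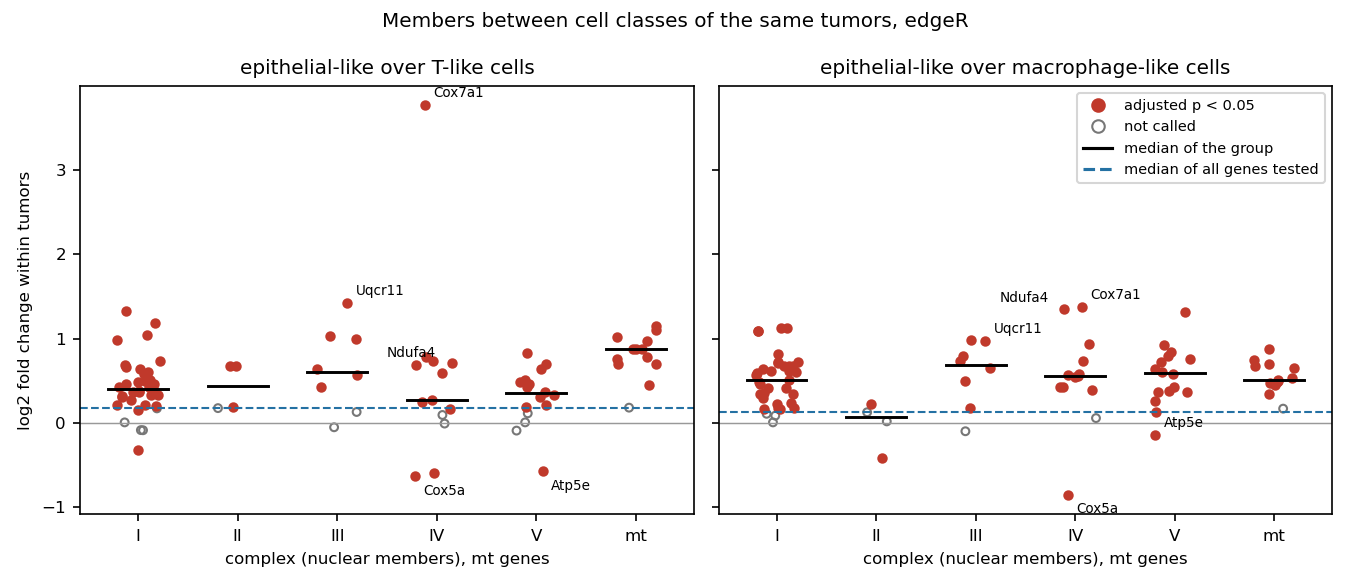
Log2 fold change of each member in epithelial-like over T-like (left) and macrophage-like cells (right) within tumors, by complex for the nuclear members (I to V) and for the mitochondrial members (mt). Filled points passed an adjusted p of 0.05 in edgeR, solid lines are group medians and the dashed line is the median of all genes tested (0.18 and 0.12). Cox7a1 is the highest point in both panels, and Cox5a the lowest.

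In the rarer classes, values are for pools with at least 20 cells. B-like cells had nuclear sums of 175 to 180 and mitochondrial sums of 254 to 268 (2 pools, 171 cells). NK-like cells (1 pool) had sums of 309 and 193, fibroblast- and mural-like cells (1 pool) 185 and 145, and neutrophil-like cells (63 cells, all of isotype pool 1) 104 and 89.8. The neutrophil-like sums were the lowest among the classes with a value, which exclude dendritic- and endothelial-like cells, and with 1 pool no difference could be tested.

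Genes that build and express the complexes were read in epithelial-like cells from lists. In this fit 8.03% of all genes were called higher and 7.36% lower, and 22.9% were called higher without isotype pool 2. Of 49 assembly factors tested, 4 were higher under B20-4.1.1 and none lower (median 0.12), a share near that of all genes. The largest were Cox18 (0.44), Ndufaf8 (0.39) and Surf1 (0.38). Without isotype pool 2, 26 were higher, and without pool 1 none. Of 8 electron, phosphate and nucleotide carriers and subunits outside the symbol pattern, edgeR called none, and none had an unadjusted p under 0.05, but without isotype pool 2 all 8 were called higher. Of 77 mitochondrial ribosomal protein genes, 8 were higher, near the share of all genes, and none lower, and 70 were higher without isotype pool 2. Without pool 1 there was 1 in each direction. Their sum was 57.4 and 75.8 in isotype pools 1 and 2, against 70.8, 69.0 and 73.2 under B20-4.1.1, the same order as the nuclear members. Of 19 genes of mitochondrial genome expression, Pnpt1, an RNA-processing nuclease of mitochondria, was higher (0.35, adjusted p = 0.045), and Lrpprc, which stabilises mitochondrial mRNAs, and the translation factor Gfm2 were lower (-0.32 and -0.37). Without isotype pool 1 Pnpt1 had 0.37 (adjusted p = 0.17), Lrpprc -0.20 (0.36) and Gfm2 -0.18 (0.50). Without isotype pool 2 Pnpt1 had 0.33 (adjusted p = 0.065) and Lrpprc and Gfm2 were called lower. The sum of the 19 genes was 6.39 and 6.26 in isotype pools 1 and 2, against 5.98, 5.67 and 6.00 under B20-4.1.1. The tumors of the 2 groups did not overlap in this sum, on which no test was run. Of 7 regulators, Pprc1, a coactivator of the PGC-1 family, fell by 0.57 (adjusted p = 0.0093, and 0.17 without isotype pool 1).

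Of 7 genes linked to respiration and mitochondrial turnover in hypoxia, 4 were called higher (Bnip3, Bnip3l, Iscu and Mxi1) and none lower, against 8.03% and 7.36% of all genes. They do not share a direction of action on respiration. None of these 4 calls was kept with counts summed per pool, where no gene of the 13920 tested was called higher. Bnip3, a hypoxia-induced receptor of mitophagy, had a log2 fold change of 1.12 (SE 0.16, adjusted p = 0.00058) and kept its call without isotype pool 1 (0.95, adjusted p = 0.020) and without isotype pool 2 (1.33). Its relative Bnip3l rose by 0.51 on the log2 scale (adjusted p = 0.0043), and 0.31 (adjusted p = 0.065) without isotype pool 1. Iscu, the scaffold on which the iron-sulfur clusters of the respiratory chain are built and thus a gene that serves respiration, rose by 0.30 (adjusted p = 0.037, and 0.44 without isotype pool 1). Of the technical lists, dissociation stress genes had 1 higher and 1 lower of 10, genes with cytosolic ribosomal symbols 5 and 6 of 95, and the free epithelial RNA list 3 and 2 of 10. The ribosomal symbols also took in Rps6ka3, a kinase gene called lower, and the pseudogene Rpl27-ps3, called higher. The cytosolic ribosomal sum in epithelial-like cells was 1831 and 2163 in isotype pools 1 and 2, against 2060, 1884 and 2081 under B20-4.1.1, and Malat1, a nuclear RNA, took 310 and 215 against 306, 228 and 191. Their part in the results for the members was not tested.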

How the data were processed

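Single-cell RNA-seq libraries (10x, 3' CellPlex) of 15 tumors were used. The authors counted reads with Cell Ranger (6.1.2 per the file headers, mm10 per the submitters' processing notes) and deposited raw UMI counts without normalization, a matrix for each tumor over 31053 genes and 12 features for multiplexing. The notes also name Seurat 4.3.0 and bcl2fastq.

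Cells with 2500 to 27500 UMIs (the study's range) and at most 20% mitochondrial UMIs (its limit is not stated) were kept. The limit removed 246 isotype and 79 B20-4.1.1 cells. Classes needed at least 5 (epithelial, macrophage) or 4 (others) detected markers, with at most 3 epithelial markers in other classes and at most 1 T marker in epithelial cells, thresholds set after marker detection had been seen. Cells of mixed markers stayed without a class, and no doublet caller was run. Counts were summed per tumor and class (at least 20 cells) and tested over all genes with edgeR 4.0.16 (R 4.3.3; filterByExpr, TMM, quasi-likelihood F test, two-sided, Benjamini-Hochberg, threshold 0.05), with tumor as a term between classes. P-values over tumors of shared pools measure the spread between tumors and not between pools. edgeR's test gives no SE, so the SE printed is the absolute log2 fold change divided by the square root of the F statistic. Alternatives were DESeq2 1.42.0, no TMM, totals without mitochondrial genes, no filter, pool as a random effect (limma 3.58.1), sums per pool, other cell limits, Leiden clusters (scanpy 1.11.5) and leaving out pools. Scripts were checked on simulated counts. The treatment fit in epithelial-like cells recovered 77% of simulated log2 changes of 1 and 33% of changes of 0.5, with 2 false calls. No pool effect was simulated, so these rates do not cover calls that follow a pool.

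The members and lists were chosen with earlier results of these data known. Named genes were called members with the largest changes, the mitochondrial members, the Sdh genes and members with tissue-restricted forms. Atp5j2, Atp5a1, Uqcrq, Atp5f1, Cox6b2, Mxi1, Ccr7 and Malat1 were named after their values were seen. mt-Nd4l and mt-Nd4 share 7 bases and mt-Nd5 and mt-Nd6 14 bases on opposite strands. Small nuclear subunits have processed pseudogenes, so reads may be split among copies. Depth limits low members such as Cox8b and Cox7a1.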

Additional observations from a re-analysis of the deposited data

Results flagged for a closer look

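Within groups of tumors, 66 groups of summed levels were searched for a single tumor far from the others, and 4 held one. Chance gives about 1 in 20 groups. In epithelial-like cells, B20-4.1.1 tumor 7 had the highest sums of nuclear complex I (103.69 per 10000 UMIs) and nuclear complex III members (41.11) among the 9 B20-4.1.1 tumors. In T-like cells, isotype tumor 6 stood apart for nuclear complex II with 2.78, and B20-4.1.1 tumor 8 for the same complex with 3.42. The latter value rests on 23 T-like cells with 119750 UMIs, the fewest T-like cells of any tumor, so counting noise is large.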

How the results depend on the processing

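No paired analysis was possible because each pool held a single treatment and the pool numbers only name the pools. Summed nuclear members (B20-4.1.1 minus isotype, per 10000 UMIs) ranged from -34.8 to 56.3 in epithelial-like cells (10.8 with all pools) and from -39.0 to 38.8 in macrophage-like cells (-0.106) when 1 pool was left out. Summed mitochondrial members ranged from -336 to -71.8 in epithelial-like (-204), -195 to -5.14 in macrophage-like (-99.9) and -163 to 0.818 in T-like cells (-80.9), with the extremes in each case without isotype pool 2 or 1. In epithelial-like cells the nuclear members called higher (2) were 4 with DESeq2, 1 without the low-count filter, 0 with pool as a random effect, 0 with sums per pool, 1 without the 3 tumors rich in T-like cells (an alternative chosen after seeing the data) and 0 to 67 without 1 pool. Those called lower (1) were 4 without TMM factors, 0 with pool as a random effect, 0 with sums per pool, 0 with clusters and 0 to 2 without 1 pool. The mitochondrial members called lower (11) were 2 with pool as a random effect, 0 with sums per pool and 4 to 11 without 1 pool. Members called under treatment (0) were, without 1 pool, 0 to 18 nuclear and 0 to 7 mitochondrial in macrophage-like cells, 0 to 1 nuclear and 0 to 5 mitochondrial in T-like cells, and 0 to 4 for the interaction. Without the filter 1 mitochondrial member was called in macrophage-like cells, and with DESeq2 1 in T-like cells. Nuclear members lower in epithelial-like than T-like cells (4) were 7 without TMM factors, 9 without the mitochondrial limit, 9 with at least 5000 UMIs, 10 with clusters and 6 to 11 without 1 pool. In these fits the median of all genes lay at 0.02 to 0.10 in place of 0.18, and 41 to 50 nuclear members were called higher without 1 pool, in place of 60. Relative to that median, the nuclear median lay at 0.17 to 0.25 over T-like and 0.37 to 0.44 over macrophage-like cells, and at 0.12 and 0.20 without the low-count filter. Those lower than in macrophage-like cells (3) were 5 without the filter, 6 with clusters and 2 to 4 without 1 pool. Of the named members, signs turned without TMM factors for Cox6a1 (-0.025), Cox7a2 (-0.014) and Ndufa4 (-0.048), and without the filter for Ndufa4 (-0.0055). Without 1 pool, log2 fold changes ranged from -0.11 to 0.40 for Cox4i1, -0.14 to 0.29 for Cox6a1, -0.23 to 0.42 for Cox7a2, -0.24 to 0.58 for Cox8a, -0.36 to 0.52 for Ndufa4 and -0.30 to 0.20 for mt-Nd4l. Apart from the left-out pools and the scaling, the cause was not tested. Of the other values, 249 counts and sums and 515 named values kept their side of the threshold and direction, 49 named values lost and 12 gained a call.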

Other observations

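Xist, the transcript of the inactive X chromosome, took 2.2 per 10000 UMIs in epithelial-like cells of isotype pool 1 and 11.7 in isotype pool 2, and between 10.0 and 10.3 in the B20-4.1.1 pools. In isotype pools 1 and 2 Xist took 0.71 and 9.13 in macrophage-like and 0.94 and 9.69 in T-like cells. Ddx3y, a Y chromosome gene, took at most 0.0008 in epithelial-like, 0 in macrophage-like and at most 0.0040 in T-like cells of any tumor. The study states that it used female mice. Isotype pool 1 thus stood apart in a nuclear RNA outside the respiratory chain as well. The part of the Xist difference in the results for the members was not tested.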
